A study of Mus musculus with 35 samples.

Results

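The pulldown examined here is that of N6-methyladenosine (m6A)-bearing RNA from the hippocampus 24 hours after intra-amygdala kainic acid (IA-KA), set against the input RNA of the same mice. Its members are 6 libraries of 35 in the series, the input and the m6A library of mice 67, 98 and 8. These are the IA-KA 24 h mice for which both libraries held at least 100000 counts, and the libraries were paired by mouse number. The animals were male C57BL/6JOlaHsd mice of 7–9 weeks, all injected with kainic acid, a glutamate receptor agonist that triggers status epilepticus, and then given the benzodiazepine lorazepam to curb the seizures, so every value of these 6 libraries is from a post-seizure hippocampus. Input libraries were made from 50 ng of total RNA and m6A libraries from 10 ng of RNA recovered by m6A immunoprecipitation of 5 µg of RNA, with a stranded total RNA kit. GEO labels the input molecule as total RNA and the m6A molecule as polyA RNA, so the pulldown and any selection of polyadenylated RNA cannot be told apart. The assay was inferred from the column names for the input of mouse 98, which has no number prefix, and for the m6A libraries, which carry a prefix of 3. Mice injected with the saline vehicle instead (IA-PBS, 4 mice, 1 at 24 h and 3 at 2 weeks) and mice 2 weeks after IA-KA (6 mice) are used below to show where the 24 h pulldown differs.

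m6A is a methyl group on adenosine that is added to many mRNAs in the nucleus. A nuclear complex built on METTL3 and METTL14 with the adaptor WTAP writes it, the demethylases FTO and ALKBH5 erase it, and YTH-domain and other proteins read it, which alters the splicing, export, translation and decay of the modified transcript. Sites lie mostly in long internal exons and near the stop codon of long mRNAs, and in the brain the mark is found on many synaptic and activity-regulated transcripts.

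The antibody recognizes the modified base, and the sequence in which the writer complex most often places it is GGACT in DNA letters, with the A methylated. The counts are per gene and do not locate a site, so the windows below show the letters in transcripts that differed between the pulldown and the input, not a measured modification. The following are the first matches in the coding sequences of 3 genes that were higher and 2 that were lower in the m6A libraries, from GENCODE M39 transcripts, read on the transcript strand alone, with GGACT in capitals:
Dynll1: agagatgcaacaGGACTcggtggagtgcg
Uqcr11: gtgggtgccgtgGGACTggtgtgggccac
Pdcd5: gagtcgaaccgcGGACTccagagatggat
Ttyh1: cagtacctgcaaGGACTggccttctggca
Fhl3: ggcgagggcgcaGGACTcggtggaggcaa
Genes on both sides of the comparison hold the letters, as do 77.9% of the 13180 protein-coding genes tested in their coding sequence and 94.4% of 13187 in the whole transcript. Of the genes called higher in m6A, Atp5k, Ndufa12, Rps23 and Rpl23a have no GGACT anywhere in their transcript.

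The libraries differed in depth and mouse 8 differed from the other mice in content. The inputs of mice 67, 98 and 8 held 5498360, 3906903 and 9914572 counts, and their m6A libraries 1979606, 1652933 and 13478363, so the ratios of mice 67 and 98 rest on the shallower pulldowns. At an equal depth of 1600000 counts, 16734 and 16636 genes would be detected in the inputs of mice 67 and 98 and 16681 and 16759 in their m6A libraries, against 23608 and 23079 in mouse 8. Of 1575 olfactory, vomeronasal, taste receptor, keratin-associated and defensin genes, taken here as silent in brain, mice 67 and 98 had a count in 51 to 87 per library and mouse 8 in 1521 of the input and 1517 of the m6A library. Other mice used here had such counts as well, with 1146 of these genes in the input and 824 in the m6A library of IA-PBS mouse 1, and 400 and 1385 in those of mouse 6, at 2 weeks after IA-KA. These genes took 0.335% of the input counts of mouse 8 (95% Wilson interval 0.331 to 0.338) and 0.361% of its m6A counts (0.357 to 0.364), and 0.0423% to 0.0543% in the libraries of mice 67 and 98. Such counts are a sign of genomic DNA in a library, and the input of mouse 8 also belongs to another library set than the inputs of mice 67 and 98. Their part in the results was not tested, and results are given with and without mouse 8. The input of mouse 8 also carried 17.4% of counts in mitochondrially encoded genes, against 1.72% and 1.62% (95% intervals 17.38 to 17.43, 1.709 to 1.730 and 1.603 to 1.628). It had 0.993% of counts assigned to Lars2, a mitochondrial leucyl-tRNA synthetase gene, against 23.1% and 21.8%. Whether the counts assigned to Lars2 come from its mRNA was not tested. In the other deep libraries of the series (10 of each assay) the mitochondrial share ran from 1.41% to 6.45% in inputs and from 2.70% to 17.5% in m6A libraries, so the m6A library of mouse 8, at 16.4%, lay inside that range and its input did not. The hippocampal neuron markers Slc17a7 (81.3 to 482 CPM), Camk2a (372 to 1524 CPM) and Prox1 (21.2 to 69.6 CPM) were present in each of the 6 libraries. CPM here is the count scaled by library size and TMM factor over the 6 libraries. The 12 excitatory neuron markers summed to 1300.1 to 3577 CPM in inputs and 1188 to 3785 CPM in m6A libraries, with both of the lowest sums in mouse 8. Markers of tissue beside the hippocampus were also present, at summed levels of 162 to 613 CPM in inputs and 231 to 609 CPM in m6A libraries for choroid plexus, 67.8 to 115 and 75.9 to 130 CPM for thalamus and 12.5 to 46.1 and 13.1 to 29.0 CPM for blood, and 0 of their markers were at 0 in all 6 libraries.

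**Figure D1:**
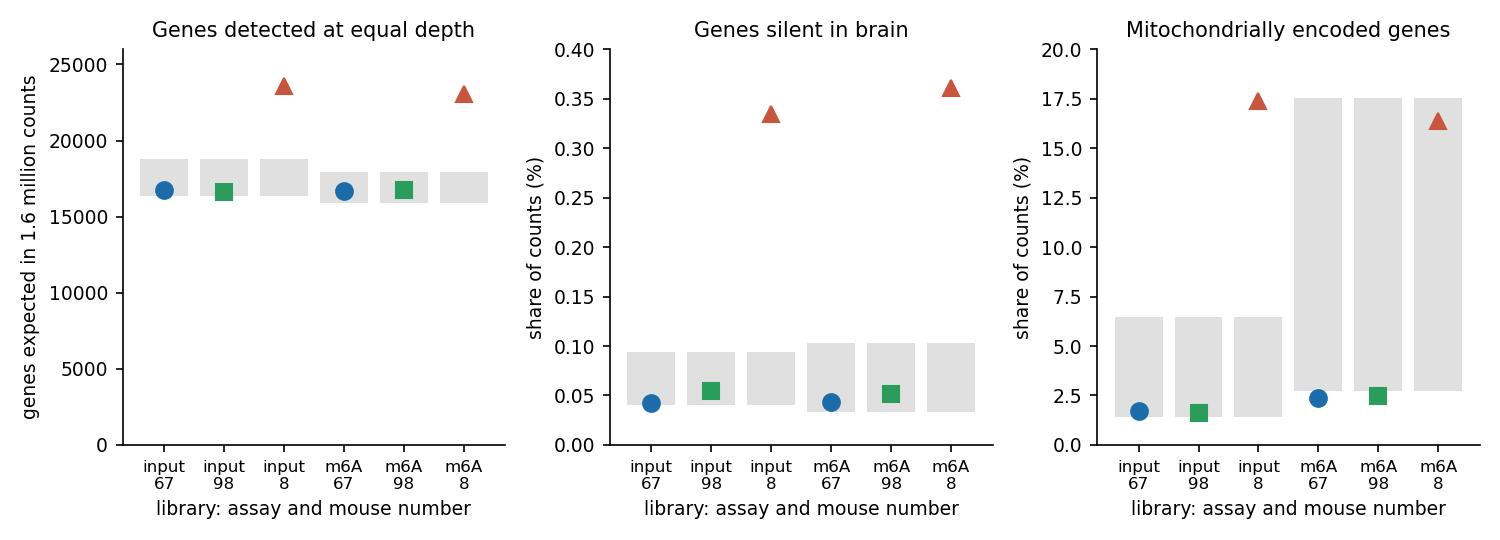
Genes expected at 1600000 counts (left), percent of counts in 1575 genes silent in brain (middle) and percent of counts in mitochondrially encoded genes (right), for the input and m6A libraries of mice 67 (circle), 98 (square) and 8 (triangle); grey bars give the range of the 10 other deep libraries of each assay. Mouse 8 lies above the grey range in each panel except for the mitochondrial share of its m6A library, 16.4%.

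Comparison of the m6A with the input libraries of all 3 mice asked which transcripts are over- or under-represented in the pulldown 24 hours after kainate. Of 12 genes with established names that were higher in m6A, 3 belonged to the list of nuclear oxidative phosphorylation genes, 2 to that of cytosolic ribosomal proteins and 1 to that of chaperones. The chloride channel gene Ttyh1 had the largest difference on the lower side. The quasi-likelihood test of edgeR, with the mouse as a block, put 15 of 14029 genes higher in m6A (0.107% of those tested) and 5 lower (0.0356%) at a Benjamini-Hochberg adjusted p under 0.05. Each of the 20 differed more than 2-fold and in the same direction in all 3 mice. At an unadjusted p under 0.05, 1056 of the 14029 genes were higher and 705 lower. Counts of list members at that threshold with 3 mice, given below, are to be read against these. Without the mouse as a block 0 genes passed in edgeR, with 479 at an unadjusted p under 0.05, and DESeq2 with the block called 148 higher and 36 lower. Overlaps with neighbouring genes are given beside each value, since no source used here names the counting program or its strand setting.

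Atp5k encodes the e subunit of the mitochondrial ATP synthase (GRCm38 chromosome 5, 108433246 to 108434399). Its level was 86.7, 80.6 and 74.0 CPM in the inputs of mice 67, 98 and 8 and 257, 305 and 347 CPM in their m6A libraries. The log2 difference of m6A from input was 1.92 ± 0.18 (SE, n = 3 pairs, edgeR adjusted p = 0.0156). Ndufa12, an accessory subunit of complex I (chromosome 10, 94199035 to 94221440), read 34.7, 33.9 and 41.0 CPM in input and 113, 111 and 119 CPM in m6A. The mice were close to each other, with log2 ratios of 1.70, 1.70 and 1.53, and the difference was 1.66 ± 0.16 (adjusted p = 0.0156). Uqcr11, a small subunit of complex III (chromosome 10, 80402997 to 80406821), read 17.5, 17.4 and 17.7 CPM in input and 66.8, 52.5 and 47.5 CPM in m6A. Its inputs were alike in the 3 mice and the log2 difference was 1.65 ± 0.19 (adjusted p = 0.0245). Atpif1, the inhibitory factor of the ATP synthase, read 110, 124 and 179 CPM in input and 430, 309 and 492 CPM in m6A, a log2 difference of 1.59 ± 0.19 (adjusted p = 0.0245).

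Among ribosomal protein transcripts, Rps23 of the small subunit rose from 62.7, 48.3 and 143 CPM in input to 212, 148 and 323 CPM in m6A (log2 difference 1.52 ± 0.18, adjusted p = 0.0245). Rpl23a of the large subunit, whose interval also holds 3 small nucleolar RNA genes and overlaps Tlcd1, rose from 139, 130 and 255 CPM to 303, 293 and 606 CPM (1.196 ± 0.157, adjusted p = 0.0422). In both genes the input of mouse 8 was the highest of the inputs, and within each mouse the m6A library lay above the input. The processed copy Rpl14-ps1 differed by 1.24 ± 0.16 (adjusted p = 0.0334), overlaps Trpm4 and can share reads with Rpl14, so its value is uncertain. Hspe1, the HSP10 co-chaperonin of the mitochondrial matrix, read 60.0, 42.9 and 61.4 CPM in input and 155, 118 and 150 CPM in m6A (1.38 ± 0.16, adjusted p = 0.0245), and its neighbour Hspd1 overlaps it in RefSeq.

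The remaining named genes on the higher side had other roles. Dynll1, the LC8 light chain of dynein (chromosome 5, 115297110 to 115300990), rose from 138, 142 and 180 CPM to 460, 417 and 573 CPM (1.67 ± 0.16, adjusted p = 0.0156). Pdcd5, an apoptosis-associated protein gene (chromosome 7, 35641985 to 35647482), rose from 10.7, 13.8 and 24.7 CPM to 49.7, 39.8 and 60.9 CPM (1.66 ± 0.23, adjusted p = 0.0490). Nap1l2, an X-linked intronless gene for a neuronal nucleosome assembly protein, rose from 87.7, 107 and 76.3 CPM to 198, 237 and 203 CPM (1.26 ± 0.16, adjusted p = 0.0334). For these 3 genes the lowest m6A value lay above the highest input value. They were picked because they were called, and the share of all genes with such a gap was not counted. Mmachc, a cobalamin-processing gene that overlaps Ccdc163, rose by 1.64 ± 0.21 (adjusted p = 0.0334), from 203, 305 and 16.2 CPM to 878, 735 and 45.8 CPM. Its level in mouse 8 was far below that in the other mice in both assays, and the ratio was still of the same sign. The predicted or clone-named genes Gm13092, Gm16089 and 2010107E04Rik were also called, at 1.98 ± 0.27, 1.98 ± 0.21 and 1.90 ± 0.22.

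On the lower side, Ttyh1, a glial and neuronal volume-regulated chloride channel gene (chromosome 7, 4119530 to 4135407), had the largest difference. It read 11150, 8655 and 3303 CPM in the inputs and 892, 1339 and 354 CPM in the m6A libraries, a log2 difference of -3.18 ± 0.26 (adjusted p = 0.0123). Ttyh1 is among the 20 most abundant genes, its interval overlaps 2 clone-named genes, and its m6A level was below its input in each mouse. Fhl3, a LIM-domain gene of muscle and other tissues (chromosome 4, 124695964 to 124708611), read 37.6, 14.1 and 50.9 CPM in input and 4.37, 2.12 and 6.28 CPM in m6A (-2.99 ± 0.23, adjusted p = 0.0123), on 4 to 79 counts in the m6A libraries. Gnaz, the Gz alpha subunit of neuronal G proteins, read 509, 330 and 326 CPM in input and 112, 108 and 97.4 CPM in m6A (-1.83 ± 0.18, adjusted p = 0.0156), and Rsph14 overlaps it. The clone-named Gm7389 and RP23-296K6.1 were at -2.22 ± 0.24 and -1.76 ± 0.21.

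The named genes had the same sign in all 3 mice, so leaving out mouse 8 could not turn their direction. Without it the 12 named higher genes lay between 1.16 (Rpl23a) and 1.91 (Pdcd5), and Ttyh1, Fhl3 and Gnaz were at -3.16 ± 0.15, -2.98 ± 0.34 and -1.90 ± 0.12. Some calls were lost with mouse 67. Without it Atpif1, Hspe1, Mmachc, Nap1l2, Pdcd5, Rps23, Rpl14-ps1 and Rpl23a no longer passed (edgeR adjusted p from 0.0599 to 0.169), and without mouse 98 Rpl23a did not (0.121). In fits of the other groups alone, Ttyh1 was lower in m6A by -4.62 ± 0.54 in IA-PBS (adjusted p = 0.0135) and -4.63 ± 0.65 in IA-KA at 2 weeks (adjusted p = 0.0063), and Atp5k higher by 1.42 ± 0.17 (adjusted p = 0.0144) and 1.48 ± 0.23 (adjusted p = 0.0091). Ndufa12 was at 0.42 ± 0.14 in IA-PBS and 0.74 ± 0.17 at 2 weeks, and Uqcr11 at -0.10 ± 0.31 and 0.53 ± 0.17, with no call against IA-PBS in the test of the difference (adjusted p = 0.92 for both).

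**Figure D2:**
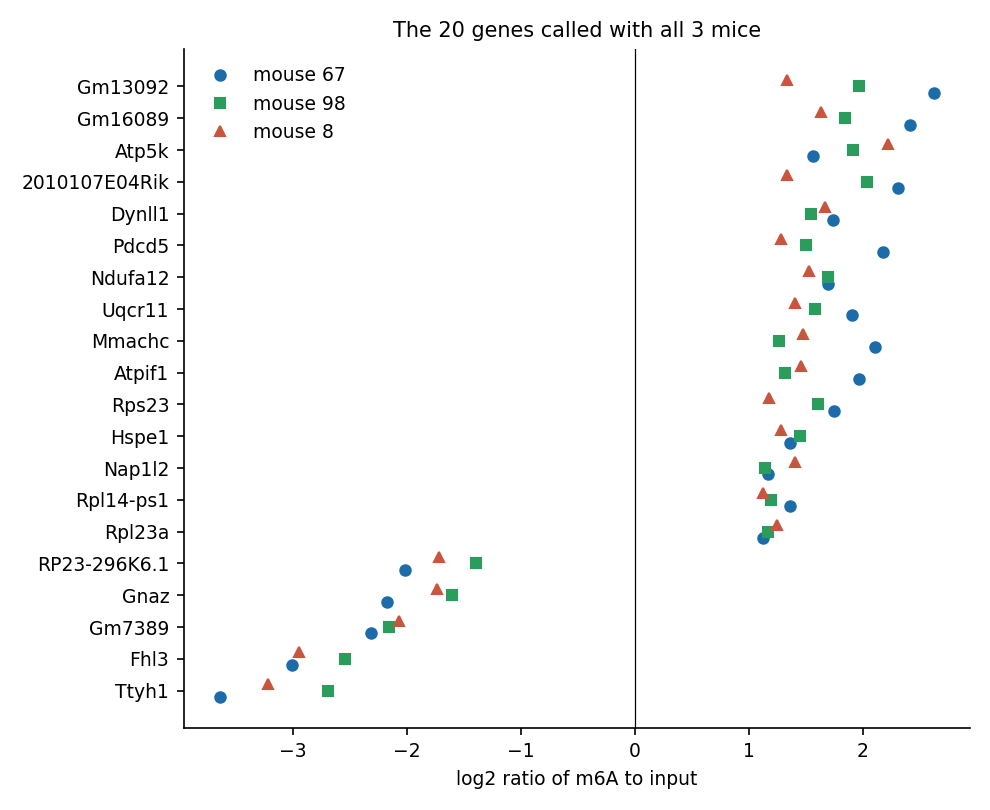
Log2 ratio of m6A to input in mouse 67 (circle), 98 (square) and 8 (triangle) for the 20 genes called with all 3 mice. The 15 genes called higher have each mouse above 1 and the 5 called lower have each mouse below -1.

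The enzymes and binding proteins of the m6A pathway did not pass the test with 3 mice: edgeR called 0 of 12 writer genes, 0 of 2 erasers and 0 of 11 tested readers, and DESeq2 called 0 as well. Few of all genes were called by edgeR either, 0.107% of 14029 higher and 0.0356% lower. At an unadjusted p under 0.05, 1 writer was higher and 1 lower, 1 eraser was lower, and 4 readers were higher and 2 lower. Of all 14029 genes, 1056 were higher and 705 lower at that threshold. Mettl3, the catalytic subunit, read 22.0, 12.8 and 120 CPM in input. Its log2 ratio was 0.74 and 1.01 in mice 67 and 98 and -0.21 in mouse 8, so the mice disagreed in sign (0.44 ± 0.26, adjusted p = 0.53), and Tox4 overlaps it. Mettl14, its partner, was at 0.25 ± 0.18 (adjusted p = 0.61). Wtap, which places the complex in nuclear speckles, was below 0 in each mouse, at -1.16, -0.19 and -0.47 (-0.60 ± 0.21, adjusted p = 0.30). Zc3h13, a further complex member, was above 0 in each mouse, at 0.77, 0.72 and 0.25 (0.59 ± 0.17, adjusted p = 0.23). The adaptors Rbm15, Rbm15b, Cbll1 and Virma (listed as 1110037F02Rik) and the writers of other targets Mettl16, Mettl5, Zcchc4 and Pcif1 ranged from -0.40 (Pcif1) to 0.19 (Rbm15). The erasers Alkbh5 and Fto were at -0.77 ± 0.20 (adjusted p = 0.18) and -0.24 ± 0.17 (adjusted p = 0.60). Among readers, the nuclear YTH protein gene Ythdc1 was above 0 in each mouse, at 0.49, 0.66 and 0.67 (0.62 ± 0.15, adjusted p = 0.17). The cytoplasmic readers Ythdf1, Ythdf2 and Ythdf3 were at 0.11 ± 0.19, 0.40 ± 0.20 and 0.31 ± 0.21.

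Without mouse 8 edgeR called 2 of 12 writers higher and 1 lower, 0 of 2 erasers higher and 1 lower, and 4 of 11 readers higher and 2 lower, where 11.5% of all genes tested were higher and 8.19% lower. DESeq2 called 1 writer and 2 readers, each higher. Higher were Mettl3 (0.86 ± 0.21, adjusted p = 0.00069), Zc3h13 (0.76 ± 0.11), Ythdc1 (0.58 ± 0.11), the splicing reader Hnrnpa2b1 (0.63 ± 0.11), the FMRP gene Fmr1 (0.54 ± 0.12) and the initiation factor subunit Eif3a (0.69 ± 0.11). Lower were Wtap (-0.71 ± 0.14), Alkbh5 (-0.58 ± 0.15, adjusted p = 0.0016), Igf2bp2 (-0.88 ± 0.24) and Igf2bp3 (-0.68 ± 0.19). Igf2bp3 was not of 1 sign in these mice, with ratios of -1.29 and 0.21, and Fto stayed at -0.11 ± 0.13 (adjusted p = 0.64). Igf2bp1 was below the filter on low counts. The study's own immunoprecipitation qPCR compared kainate with control mice, for some transcripts at a later time than that of the mice used here. The fits here compare m6A with input within kainate mice, so their calls do not test those qPCR results. Of the 10 transcripts measured by that qPCR that are in the files, edgeR and DESeq2 called 0 with 3 mice, and 0 of the 9 tested without mouse 8, with medians of -0.19 and 0.03. At an unadjusted p under 0.05, 0 were higher and 1 was lower with 3 mice, Lrrc20 (-0.68 ± 0.27, adjusted p = 0.35). The other 9 (Mier1, Serpina3n, Dido1, Pik3r1, Atp2b3, Atf7ip, Zfp57, Oprk1 and Mastl) lay between -0.48 (Oprk1) and 0.19 (Mier1). Dido1 and Mier1 were above 0 in each mouse, and Atp2b3, a plasma membrane calcium pump gene, was at 0.22 and 0.19 in mice 67 and 98 and -0.97 in mouse 8.

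Leaving out mouse 8 raised the number of calls from 20 to 2513. Of 12734 genes tested, 1470 were higher in m6A (11.5%) and 1043 lower (8.19%), of which 366 and 270 differed more than 2-fold. These p-values rest on 2 mice. The fit then had 1 residual degree of freedom per gene, took its spread wholly from the trend shared across genes, and put the median biological variation between pairs at 9.41%, against 19.3% with mouse 8. DESeq2 called 293 higher and 73 lower, and the fit without the block 481 and 147, so 80.1% and 76.6% of calls were on the higher side against 58.5% in the main fit. Scaling by library size alone shifted the median gene by 0.35 on the log2 scale and put 94.3% of its calls on the higher side. All 20 genes called with 3 mice were among the 2513. Genes singled out here after their values were seen are Park2, the parkin ubiquitin ligase gene, at 3.62 ± 0.15, Vamp3, a vesicle fusion protein gene, at 2.28 ± 0.14, and Aamp at 1.95 ± 0.12. Park2 read 14.4 and 14.4 CPM in input and 217 and 132 CPM in m6A in mice 67 and 98. In mouse 8 it read 25.8 and 43.5 CPM, a log2 ratio of 0.74 beside 3.88 and 3.17. On the lower side, also picked after their values were seen, were Lars2 at -2.86 ± 0.25 and Napsa, an aspartic protease gene, at -2.70 ± 0.13. The level assigned to Lars2 fell from 246977 and 231396 CPM to 13622 and 78629 CPM in mice 67 and 98, and read 11827 and 2951 CPM in mouse 8. In each mouse the m6A level was thus below the input.

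Nuclear genes of oxidative phosphorylation, whose products form complexes I to V of the inner mitochondrial membrane, leaned to the higher side. With 3 mice, 3 of 76 (3.95%) were called higher and 0 lower, beside 0.107% and 0.0356% of all genes tested. The median log2 difference was 0.41 beside -0.03 for all genes tested. Without mouse 8, 45 of 76 (59.2%) were higher and 0 lower (median 0.60 beside -0.02), against 11.5% and 8.19% of all genes. The medians were 0.64, 0.58 and 0.09 in mice 67, 98 and 8. Of all 14029 genes, 2299 were above 0 in each mouse and 2934 below 0 in each. Of the 76 list members, 38 were above 0 in each mouse while 0 were below 0 in each. DESeq2 called 12 of them with 3 mice and 15 without mouse 8, all higher, and the fit without the block called 23 without mouse 8. At an unadjusted p under 0.05 with 3 mice, 32 were higher and 1 lower, beside 1056 and 705 of all 14029 genes. Library size scaling called 15 higher with 3 mice, 60 higher without mouse 8 and 0 lower in either. It shifted the median gene upward by 0.26 and 0.35 and put 94.3% of all calls on the higher side, so these counts cannot show a direction. With 3 mice the list median lay 0.45 above that of all genes under this scaling, beside 0.44 with TMM. Ndufb7 of complex I, the next member by p, was at 1.17 ± 0.18 with 3 mice (adjusted p = 0.064) and 1.30 ± 0.16 without mouse 8. In share of counts the list went from 0.363%, 0.353% and 0.376% of the inputs to 0.852%, 0.635% and 0.482% of the m6A libraries.

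Of all genes tested, 0.107% were called higher and 0.0356% lower with 3 mice, and 11.5% and 8.19% without mouse 8. Beside these shares, cytosolic ribosomal protein genes had 2 of 81 called higher and 0 lower with 3 mice (median 0.26). Without mouse 8, 35 of them were higher and 5 lower (median 0.29), the lower being Rpl12, Rpl7a, Rpl30, Rps15a and Rps2. Their medians were alike in the mice, at 0.29, 0.27 and 0.32. Rpl22 and Rpl29, the next by p, were at 1.04 ± 0.16 (adjusted p = 0.061) and 1.01 ± 0.17 (adjusted p = 0.079) with 3 mice. Replication-dependent histone genes have mRNAs that end in a stem-loop in place of a poly(A) tail. With 3 mice edgeR called 0 of 28 of them and DESeq2 1 (median 0.51). At an unadjusted p under 0.05, 10 were higher and 1 lower, beside 1056 and 705 of all 14029 genes. Without mouse 8, 12 of 26 were higher and 1, Hist4h4, was lower (median 1.201). Their medians by mouse were 0.92, 0.44 and 0.16. Hist1h2ao read 0.390 and 1.09 CPM in the inputs and 9.14 and 10.1 CPM in the m6A libraries of mice 67 and 98 (3.74 ± 0.55), and 2.16 and 5.17 CPM in mouse 8. Its inputs in mice 67 and 98 lay near 0, so the size of its difference is uncertain. Of 69 replication-dependent histone genes in the files, 28 were tested with 3 mice and 26 without mouse 8. A gene can pass the filter on low counts through its m6A libraries alone, so the filter may raise the share called higher and the medians. Members of the histone clusters are near-identical and their reads may have been split.

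Heat shock and chaperone genes had Hspe1 called of 24 with 3 mice (median 0.30). Without mouse 8, 13 were higher and 0 lower (median 0.36), where 11.5% of all genes were higher and 8.19% lower. Their medians were 0.37, 0.34 and 0.02 in mice 67, 98 and 8, and 12 of the 24 were above 0 in mouse 8. Of the 13 called higher without mouse 8, Hsp90aa1, the inducible HSP90, was at 0.61 ± 0.12, with ratios of 0.67, 0.53 and 0.75 in mice 67, 98 and 8. For the 20 housekeeping transcripts the mice were not alike. Without mouse 8, 9 were called higher and 0 lower (median 0.30), while the median in mouse 8 alone was -0.57. Ubb, a polyubiquitin gene, rose from 584 and 694 to 1719 and 1870.4 CPM in mice 67 and 98 and read 803 and 882 CPM in mouse 8.

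Genes of the presynaptic release machinery had 0 of 35 called by edgeR and 1 by DESeq2 with 3 mice, with 6 higher and 3 lower at an unadjusted p under 0.05. Of all 14029 genes, 1056 were higher and 705 lower at that threshold with 3 mice. Without mouse 8, 11 were higher and 5 lower (median 0.19). The SNARE regulator Cplx1 rose from 233 and 270 CPM to 655 and 568 CPM in mice 67 and 98 (1.30 ± 0.11) and read 77.6 and 90.5 CPM in mouse 8. The SNARE gene Stx1a was at 0.74 ± 0.13, also higher, and the calcium sensor Syt7 at -0.53 ± 0.12 on the lower, with Vamp1 and Syt4 among the others. Of 15 AMPA, kainate and NMDA subunit genes 1 was higher (Gria4, 0.43 ± 0.13) and 2 lower (Grik2 and Grik4) without mouse 8, and of 12 GABA-A subunits 0 were higher and 2 lower (Gabrb1, -0.38 ± 0.12, and Gabra2, -0.42 ± 0.12). These counts are to be read against the 11.5% higher and 8.19% lower of all genes, and DESeq2 called 0 members of either receptor list. Of 40 AP-1, Egr and other early response genes, which seizures induce, edgeR and DESeq2 called 0 with 3 mice, with 3 higher and 1 lower at an unadjusted p under 0.05. Without mouse 8 edgeR called Jun and Npas4 higher and Fbxo33, Klf6 and Jund lower, shares below those of all genes in both directions, and DESeq2 called 0. Jun was 0.64 ± 0.13, with ratios of 0.56, 0.71 and 0.74, and the ubiquitin ligase subunit gene Fbxo33 was -0.81 ± 0.20. Of 39 inflammatory signalling genes tested without mouse 8, the chemokine Ccl12 was higher (1.82 ± 0.32) and the complement gene C4b lower (-0.48 ± 0.17).

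The 299 zinc finger genes named Zfp that were tested without mouse 8 had 7 called higher (2.34%) and 23 lower (median -0.11). Of all genes tested, 11.5% were higher and 8.19% lower, so the share called lower was not above that of all genes. The median of the Zfp genes lay 0.10 below that of all genes tested, both with TMM and with library size scaling. The latter shifted all genes upward, so that it called 28 of them higher and 6 lower (median 0.24). In mouse 8 their median was 0.42, with 249 of 335 genes above 0. Astrocyte markers had 4 of 10 lower and 0 higher without mouse 8 (median -0.30), namely the glutamate transporters Slc1a2 (-0.54 ± 0.12) and Slc1a3, Fgfr3 (-0.82 ± 0.18) and Sox9. Under either scaling the median lay 0.28 below that of all genes. Their median in mouse 8 was 0.51. The summed level of the 10 markers was 4935, 4341 and 1075 CPM in the inputs and 3509, 3395 and 1205 CPM in the m6A libraries. Since the tissue is mixed, fewer cells of a type and less RNA per cell cannot be told apart in a summed level that differs between mice. That caveat is on the level and not on the ratio, whose libraries both come from the same animal. Endothelial markers had Pecam1, Slco1a4 and Flt1 of 9 lower without mouse 8 (median -0.39), and their summed level was 508 to 1456 CPM in inputs and 331 to 453 CPM in m6A libraries. With 3 mice, members of the oxidative phosphorylation, ribosomal protein and chaperone lists alone were called by edgeR among the lists of named gene groups.

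**Figure D3:**
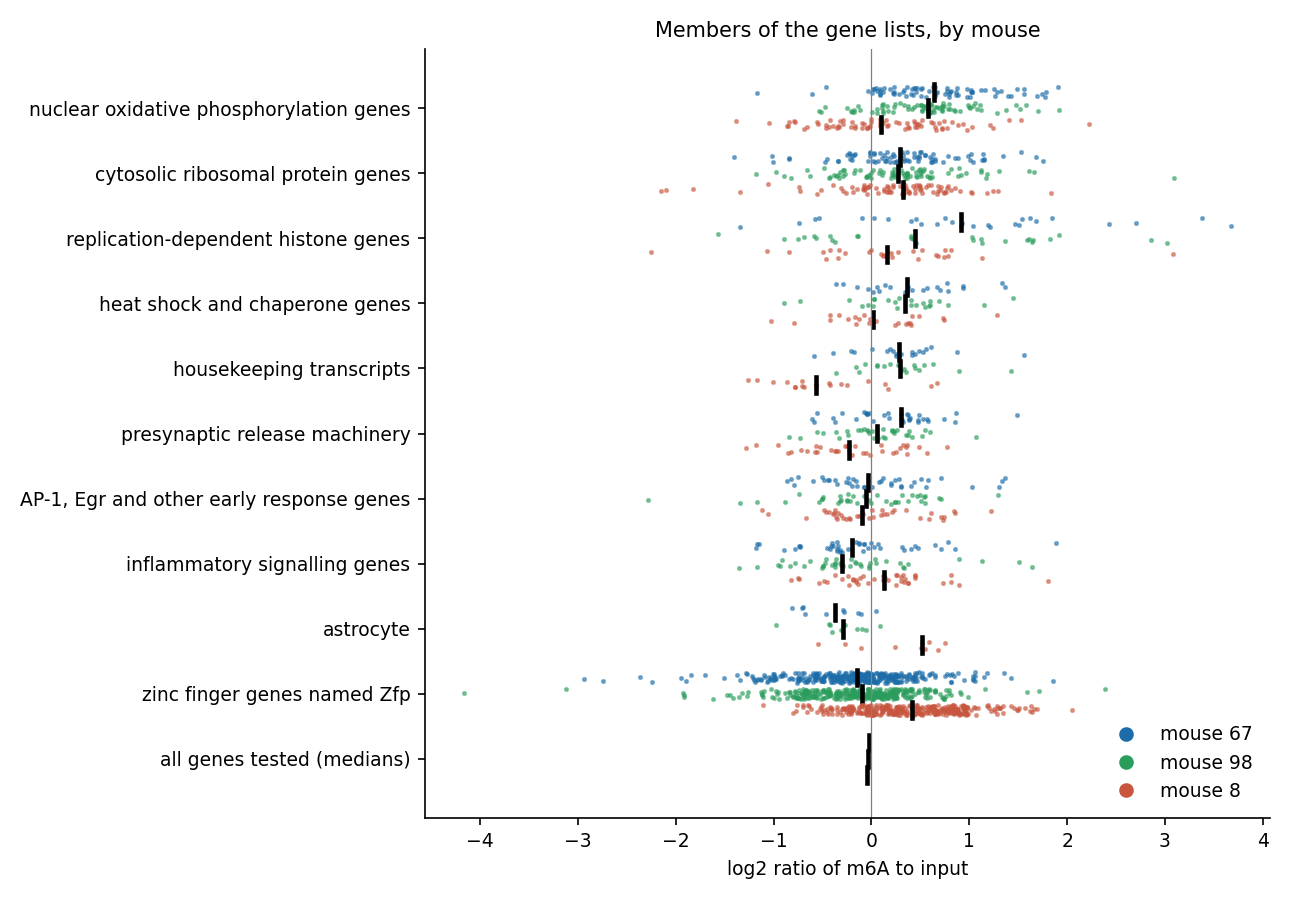
Log2 ratio of m6A to input for each tested member of 10 gene lists (points) in mouse 67, 98 and 8, with black ticks at the medians and the medians of all genes tested in the bottom row. Oxidative phosphorylation genes have medians of 0.64, 0.58 and 0.09 and Zfp genes of -0.14, -0.10 and 0.42.

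Agreement of the mice was uneven. Across the 14029 genes the log2 ratios of mice 67 and 98 correlated with Pearson r = 0.40 (Spearman rho = 0.43), those of mice 67 and 8 with r = 0.12 (rho = 0.08) and those of mice 98 and 8 with r = 0.09 (rho = 0.10). Over the 5367 genes with at least 50 counts in each library the values were 0.77, 0.24 and 0.22. These are across genes, which are not independent replicates, and each mouse's ratio shares its own pair of libraries. Genes called in mice 67 and 98 were then read in mouse 8, which had no part in choosing them. Of the 1470 higher, 62.2% were above 0 in mouse 8 (median 0.16), as were 46.2% of all genes. Of the 1043 lower, 55.5% were below 0 (median -0.08), as were 53.7% of all genes. In the IA-PBS mice 76.4% of the higher and 83.2% of the lower genes that were tested there kept their direction, beside 48.0% and 52.0% of all genes, and in the IA-KA mice at 2 weeks 76.2% and 75.2%, beside 45.5% and 54.5%. The values of those groups are fits over 4 and 6 mice and that of mouse 8 is a single pair, so the shares were not compared by a test.

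**Figure D4:**
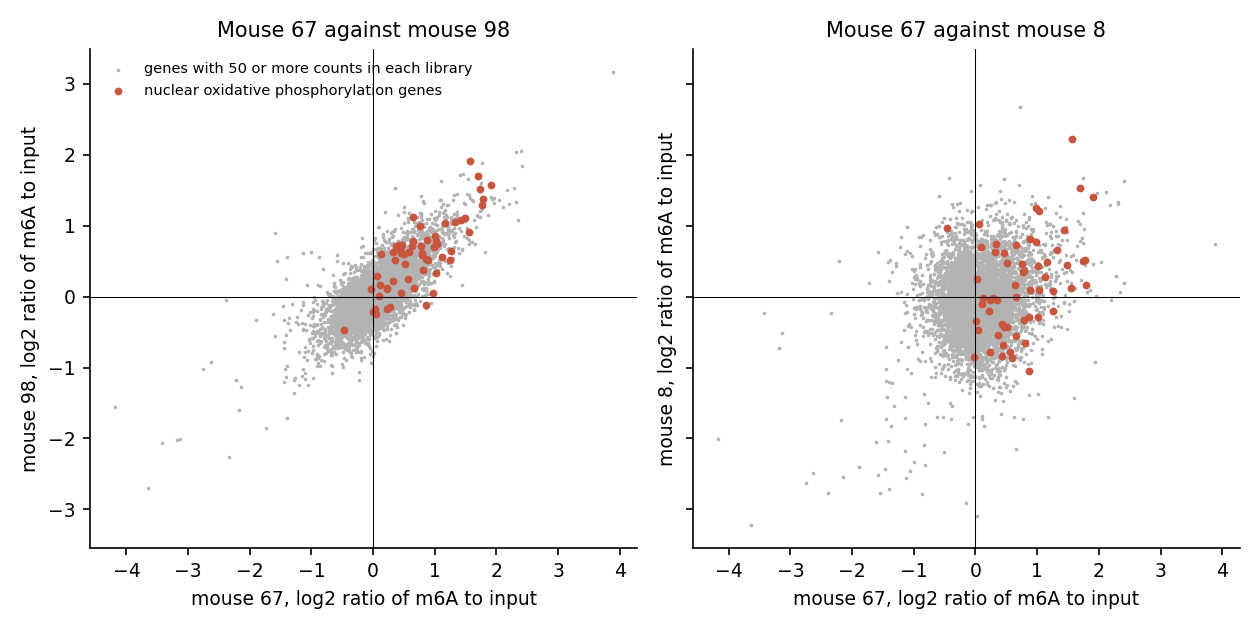
Log2 ratio of m6A to input in mouse 67 (x axis) against mouse 98 (left) and mouse 8 (right), for the 5367 genes with at least 50 counts in each library (grey) and nuclear oxidative phosphorylation genes among them (red). Points follow the diagonal on the left (r = 0.77) and spread widely about 0 in mouse 8 on the right (r = 0.24).

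Short transcripts were more often called higher in the pulldown of mice 67 and 98. GENCODE transcripts were found for 97.6% of the genes tested, which were split into 5 bins of length. Without mouse 8 the median log2 difference fell from 0.21 in the shortest bin (204 to 2159 bases) by way of 0.04, -0.03 and -0.07 to -0.10 in the longest (5883 to 107543 bases). In the shortest bin 20.8% of genes were called higher and 3.87% lower, and in the longest 6.30% and 12.3%. The correlation of the ratio with length was -0.19, -0.14 and -0.10 (Spearman rho) in mice 67, 98 and 8. In the fits of IA-PBS and of IA-KA at 2 weeks it was weaker, at -0.03 and -0.05. GC content went with the ratio in opposite directions, with rho of 0.17 and 0.09 in mice 67 and 98 and -0.28 in mouse 8, whose ratio also fell with the number of exons (rho = -0.29, against -0.02 and 0.00). In the fits of IA-PBS and of IA-KA at 2 weeks, rho was -0.13 and -0.40 with GC content and -0.08 and -0.21 with the number of exons, of the sign seen in mouse 8. The number of GGACT per transcript, which grows with its length, had a rho of -0.12, -0.08 and -0.12, and GGACT per kilobase 0.02, 0.03 and -0.07.

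Within the shortest bin, 40 of 58 oxidative phosphorylation genes (69.0%, median 0.72) and 29 of 69 ribosomal protein genes (42.0%, median 0.28) were higher without mouse 8, beside 416 of the 2200 other genes tested there (18.9%, median 0.20). These shares describe lists that were chosen with earlier results of these data known.

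**Figure D5:**
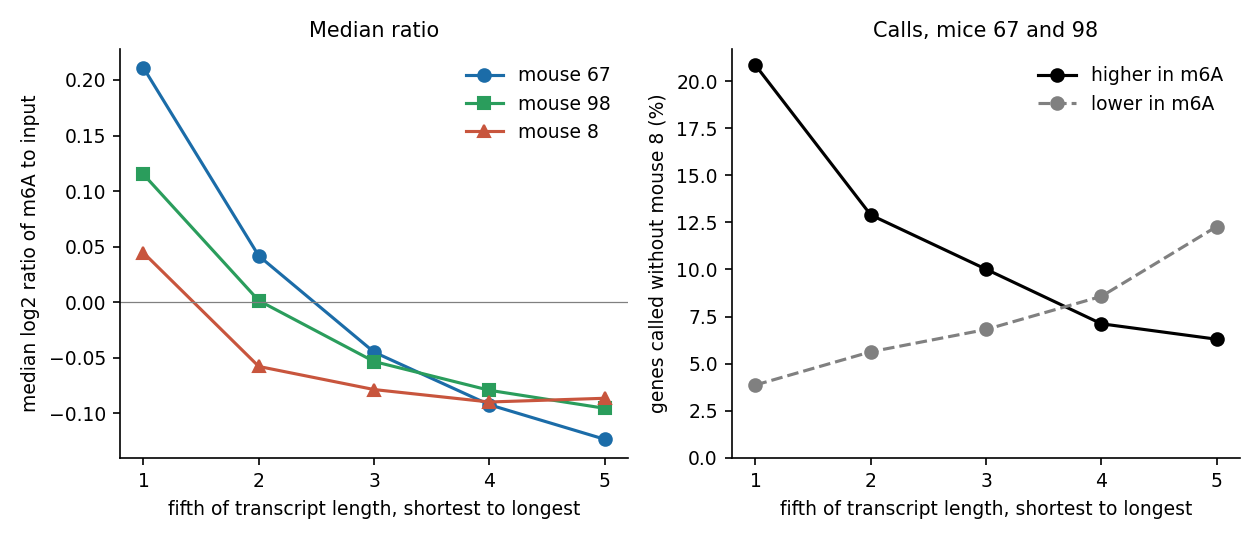
Median log2 ratio of m6A to input in each mouse (left) and percent of genes called higher or lower without mouse 8 (right), over 5 bins of transcript length from shortest to longest. In mouse 67 the median runs from 0.21 to -0.12, and the share of genes called higher from 20.8% to 6.30%.

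Whether the pulldown at 24 hours differed from that of other mice was tested as a difference of m6A effects in 1 model of 13 mice. Against IA-PBS, 0 of 16634 genes were called higher and 2 lower (0.012%), with 268 and 333 at an unadjusted p under 0.05. Against IA-KA at 2 weeks, 0 were higher and 1 was lower (0.00601%), with 243 and 320 at an unadjusted p under 0.05. DESeq2 called 0 and 3 (Ap1s1, Gm42857 and Gm8430). The m6A columns of all IA-PBS mice carry another library prefix than those at 24 hours, so library set and group cannot be told apart in that comparison. In its own fit, the oxidative phosphorylation list had a median of 0.01 in IA-PBS and 0.06 in IA-KA at 2 weeks beside 0.41 at 24 hours. The differences for the list had medians of 0.37 and 0.29, with 0 of 76 genes called and 12 and 9 higher at an unadjusted p under 0.05. Without mouse 8 these medians were 0.55 and 0.44, again with 0 called. For the mitochondrially encoded genes the median was -0.12 at 24 hours, 0.10 in IA-PBS and 1.09 at 2 weeks. Against IA-PBS the median difference was -0.26, with 0 of 13 called and 2 lower at an unadjusted p under 0.05. Against 2 weeks the m6A effect of 9 of 13 was lower at 24 hours at an unadjusted p under 0.05, with 0 called, and of 6 without mouse 8.

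Both called genes are predicted genes. Gm8430 (chromosome 6, 122456866 to 122457421), within the interval of Rimklb, had 0, 0 and 240 counts in the inputs of mice 67, 98 and 8 and 0, 0 and 98 in their m6A libraries. In IA-PBS it had 0 to 6 counts in inputs and 215 to 1208 in m6A libraries, and at 2 weeks 0 in each input and 241 to 862 in m6A libraries. Its 24 h counts thus come from mouse 8 alone. Mice 67 and 98 had no count in either assay, and a count of 0 allows up to 3 per library. The fitted differences were -9.17 against IA-PBS and -13.01 against 2 weeks (adjusted p = 0.000795 and 0.000972). Since each input at 2 weeks was at 0, the size of the latter depends on the prior count and is no bound. Against IA-PBS, whose inputs held 0 to 6 counts, the size rests on few input counts. Gm38356, called against IA-PBS, had 1136 counts in the input of mouse 8 and 1472 in the m6A library of IA-PBS mouse 4, and 0 in the remaining libraries of those groups. Without mouse 8, 0 genes were called in either comparison, with 1212 and 1443 at an unadjusted p under 0.05.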

How the data were processed

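The authors deposited raw read counts per gene and sequencing lane, on mm10 per the submitters' processing notes; the aligner and the counting program were not given in any source used here. The 4 lane columns of each library were summed. Of 148 count columns, 8 could not be tied to a sample and were not used. For 27 of 35 libraries the assay was inferred from the prefix of the column name, among them the input of mouse 98 and the m6A libraries used here. Each mouse gave 1 library per assay and was not pooled.

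Counts were analysed in R 4.3.3 with edgeR 4.0.16 (TMM, filterByExpr by assay, robust quasi-likelihood test with the mouse as a block, Benjamini-Hochberg over all genes tested, called at an adjusted p under 0.05), with DESeq2 1.42.0 and limma 3.58.1 (voom) as alternatives. SE is the log2 fold change divided by the root of F. Log2 ratios per mouse are log2 CPM with a prior count of 2, m6A minus input. The mouse number links the 2 libraries because both come from 1 animal. Deviations of input and m6A libraries from their assay means correlated at 0.64, 0.61 and 0.83 within mice 67, 98 and 8. Across mice 67 and 98 they also correlated, at 0.43 (input of 67, m6A of 98) and 0.47 (input of 98, m6A of 67). Between either of them and mouse 8 the values ran from -0.69 to -0.63, so the within-mouse values also reflect how far mouse 8 lies from the others. Differences between groups were tested in 1 model of 13 mice. The procedure was tested on simulated data. Gene coordinates and overlaps are from RefSeq on GRCm38.p6, and transcripts from GENCODE M39, matched by symbol. Shares of counts have 95% Wilson intervals, which cover counting error only. Library totals ran from 1652933 to 13478363 counts.

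Members and lists were chosen with earlier results of these data known. Named were called genes with an average log2 CPM of at least 4, the same sign in all mice and no predicted or clone name (at most 12 per direction), all members of the writer, eraser, reader and qPCR lists, up to 4 members of each other list by smallest p, and up to 5 called genes per direction for each difference. Any other name was picked once its values had been seen, as said beside it, or completes a count of 5 or fewer, where not every member is reported here.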

Additional observations from a re-analysis of the deposited data

Results flagged for a closer look

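Of 19 sets of shares or levels examined over the IA-KA 24 h libraries of an assay (4 inputs, including a shallow library of mouse 97, and 5 m6A libraries, including those of mice 97 and 79), 7 had a sample far from the rest. Chance gives about 1 in 20, but the sets overlap, and 6 of the 7 are of mouse 8, whose signs of genomic DNA were known when the sets were chosen, so the number lends no separate support. In the m6A libraries mouse 8 was highest in genes silent in brain (0.361% of counts, the others 0.0437% to 0.107%), mitochondrially encoded genes (16.4%, the others 1.86% to 2.74%), RefSeq pseudogenes (3.83%, the others 1.12% to 1.42%) and genes expected at equal depth (23079, the others 16681 to 17924). In the inputs it was highest in mitochondrially encoded genes (17.4%, the others 1.62% to 2.49%) and in cytosolic ribosomal protein genes (1.51%, the others 0.714% to 0.790%). The m6A library of mouse 67 was highest in replication-dependent histone genes (0.0583%, the others 0.0411% to 0.0453%).

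The test of the difference itself called Gm38356 (-25.01 on the log2 scale, against IA-PBS) and Gm8430 (-9.17 against IA-PBS and -13.01 against IA-KA at 2 weeks). The Gm38356 call rests on a single library in each group, the input of mouse 8 and the m6A library of IA-PBS mouse 4. DESeq2 put it at -0.07, and edgeR did not call it without either of these mice. It therefore does not show a difference between groups of mice. Gm38356 was at 0 in most libraries. Gm8430 was counted in each m6A library of both comparison groups, but at 24 hours in mouse 8 alone. The fitted sizes for Gm38356 and for Gm8430 against 2 weeks depend on the prior count. The size for Gm8430 against IA-PBS rests on few input counts.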

How the results depend on the processing

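The alternatives for the set without mouse 8, the removal of the most abundant genes and the comparison within 1 column prefix were chosen after seeing the data. With 3 mice, 20 genes were called. Other settings gave 184 with DESeq2 (148 higher, 36 lower), 45 with voom, 281 with library size scaling (265 higher, 16 lower, 94.3% higher against 75%, with the median gene shifted by 0.26), 56 with a mean of 10 counts, 526 with no filter and 0 at an adjusted p under 0.01. Leaving out 1 mouse gave 19 to 2513 calls (19 without mouse 67, 101 without mouse 98, 2513 without mouse 8). All 20 genes were among the calls without mouse 8, 19 without mouse 98 (not Rpl23a) and 12 without mouse 67, and 0 changed sign. Each of the 20 had the same sign in all 3 mice, so these fits could not turn it. The pairing by mouse decides the calls, since without the block 0 genes passed, as with all 5 m6A libraries and no block. Without mouse 8, 2513 genes became 366 with DESeq2, 628 without the block, 1667 at an adjusted p under 0.01 and 636 with a fold change above 2. Library size scaling gave 3618, of which 1675 were among the 2513, and 41 of the 2513 changed sign.

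For the difference from IA-PBS (2 genes), DESeq2 gave 0, no filter 108, no replicate block 0, the 2 groups alone 1 (Gm8430) and leaving out 1 mouse 0 to 3. For the difference from IA-KA at 2 weeks (1 gene), DESeq2 gave 3, no filter 128, no block 0, the 2 groups alone 3 (Gm8430, Gm10222 and Gm7416), 1 column prefix 1 (Gm10222) and leaving out 1 mouse 0 to 2. Both were 0 without mouse 8. Without mitochondrial counts, silent genes took 0.405% of the input and 0.431% of the m6A library of mouse 8. The correlations between mice rose to 0.77, 0.24 and 0.22 over genes with at least 50 counts. Of 2365 comparisons over 170 named genes, 2139 kept their side of the threshold or value, 49 lost it, 125 passed it and 52 moved, and 0 of the called named values changed sign. Of 461 list values, 65 moved. The shallow m6A libraries of mice 67 and 98 limit genes of low count.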

Other observations

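The mitochondrially encoded genes, transcribed inside the organelle, had members on both sides of 0. With 3 mice edgeR called 0 of 13 and DESeq2 1 lower, with 0 higher and 2 lower at an unadjusted p under 0.05 (median -0.12). Without mouse 8 edgeR called mt-Nd6 (0.89), mt-Nd2 (0.62), mt-Atp6, mt-Nd5 and mt-Co2 higher and mt-Co3 (-1.08) and mt-Nd3 (-0.53) lower. Of 11 interneuron markers, edgeR called 0 with 3 mice. Without mouse 8, Slc32a1, Calb2, Npy and Sst of the 11 were higher and 0 lower (median 0.07). The mice disagreed, with medians of 0.15, -0.06 and -0.42 in mice 67, 98 and 8 and 8, 5 and 4 members above 0. Their summed level was 469 to 615 CPM in inputs and 363 to 635 CPM in m6A libraries. DESeq2 called 0 of these interneuron markers. In the lists of chromatin regulators, potassium channel genes and guidance genes, edgeR called 0 members with 3 mice. At an unadjusted p under 0.05, 3, 4 and 0 were then higher and 2, 2 and 6 lower, beside 1056 and 705 of all 14029 genes. Without mouse 8, 6 of 51, 2 of 59 and 1 of 59 were called higher and 3, 7 and 4 lower, where 11.5% of all genes were higher and 8.19% lower. Those in the smaller counts were Tet2, Hdac4 and Asxl2 (lower), Kcnj9 and Kcnj4 (higher), Robo2 (higher) and Ephb2, Nrp1, Plxnb1 and Epha5 (lower). DESeq2 called 1 chromatin regulator in each direction and 0 of the other 2 lists.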
